A study of Mus musculus with 12 samples.

Results

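The average effect of the C26 tumour on the transcripts of heart and gastrocnemius was estimated from all 12 of the 12 arrays of the study. The 6 arrays of tumour-bearing mice were set against the 6 arrays of non-tumour-bearing (NTB) mice by their titles, with the muscle as an additive term, so that a single tumour coefficient was shared by both muscles. Of the 35556 rows of the deposited value table, the 23819 that carried a gene symbol were tested. No measured value was used to choose them.

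C26 mice had received C26 colon carcinoma cells under the skin of the flank, and NTB mice had been injected with 100 µl of the culture medium alone. All were Balb/c-DBAj hybrids, 10 to 11 weeks old by the labels. Each of the 4 groups (C26 heart, NTB heart, C26 gastrocnemius, NTB gastrocnemius) held 3 samples called biological replicates. The p-values below set an effect against the spread between these samples. Those of the average also count a difference of the effect between muscles as spread. Whole organs were taken, heart and gastrocnemius came from separate cohorts of mice, so muscle and cohort cannot be told apart. RNA was measured on 1-colour Affymetrix MoGene arrays, and the number of arrays limits the precision. A whole organ holds many cell types, so fewer cells of a type and less RNA per cell cannot be told apart.

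The C26 tumour is a mouse model of cancer cachexia, the wasting of muscle and fat that accompanies many cancers. Wasting limb muscle is known to break down its proteins through the ubiquitin-proteasome and autophagy-lysosome systems, which are switched on by FoxO factors, glucocorticoids and inflammatory cytokines of the interleukin-6 family that signal through STAT3. The heart also loses mass in this model, and the comparison asks which changes of expression both organs share.

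The arrays carried the markers of their labelled organs. The median log2 level of 14 heart muscle markers lay between 12 and 12.39 on the 6 heart arrays and between 6.27 and 6.72 on the 6 gastrocnemius arrays, and that of 15 skeletal fibre markers lay between 12.48 and 13.22 in gastrocnemius and between 6.12 and 6.49 in heart. The third C26 gastrocnemius array stood apart from its group: its root mean square deviation from the group mean was 0.331 on the log2 scale, against 0.114 to 0.233 on the other 11 arrays. It also had the highest median level of T and B lymphocyte markers (6.23, against 5.18 to 5.48 on the other 11) and of adipocyte markers (7.95, against 5.78 to 7.28).

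On the average of both muscles 800 rows rose (3.36% of those tested) and 611 fell (2.57%) in C26 mice at an adjusted p under 0.05 (limma, Benjamini-Hochberg over 23819 rows), 1411 in all (5.92%). Among the 19383 genes that could be named, 693 rose (3.58%) and 528 fell (2.72%). The change exceeded 2-fold in 103 of the rises and 68 of the falls, and the median size among called rows was 0.57 for rises and 0.56 for falls on the log2 scale. Each called row had the same sign in both muscles, 800 of 800 and 611 of 611. This is largely fixed by the fit, which counts a difference between muscles as spread, so that a row with opposing effects can hardly be called. A stricter description is that all 3 C26 arrays lay on the same side of all 3 NTB arrays in heart and again in gastrocnemius, which held for 529 of the rises and 480 of the falls. Over all tested rows, 736 (3.09%) lay above without overlap in both muscles, 697 (2.93%) lay below, and 364 (1.53%) lay in opposite directions. Without the third C26 gastrocnemius array the counts were 1063 rises and 893 falls. They were 468 and 378 without the second C26 gastrocnemius array, and 519 and 368, 607 and 368, and 461 and 397 without NTB gastrocnemius arrays 1, 2 and 3.

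**Figure D1:**
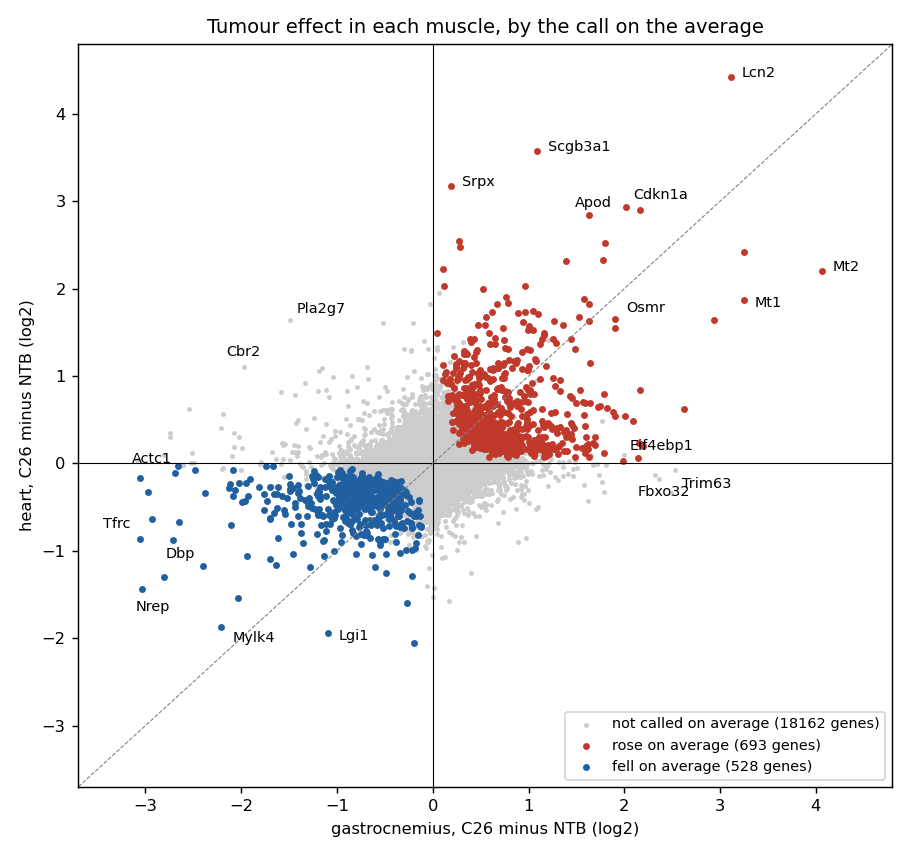
Each point is 1 of 19383 named genes, with its difference of mean log2 values between C26 and NTB mice in gastrocnemius (x axis) and in heart (y axis); red points rose on the average (693 genes), blue points fell (528 genes) and grey points were not called. Called genes lie in the quadrants of equal sign, while Trim63 and Fbxo32 lie far to the right at a heart difference near 0 and stay grey, and Pla2g7 and Cbr2 lie in the upper left.

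The sizes in the muscles were often unequal. The rises had a median of 0.63 in gastrocnemius and 0.44 in heart on the log2 scale, and the falls had a median size of 0.71 and 0.39. Fitted with 4 group means, 1448 rows rose (6.08%) and 1130 fell (4.74%) in gastrocnemius, 10.8% together, and 416 rose (1.75%) and 222 fell (0.932%) in heart, 2.68% together. Which muscle had more calls depended on the fit. With each muscle fitted alone 466 rose and 385 fell in gastrocnemius, and 1258 and 1301 in heart. Without each heart array in turn 224 to 272 rose and 90 to 113 fell in heart, and without the third C26 gastrocnemius array 691 and 534. In gastrocnemius 2605 rose without that array and 905 without the second, and 753 fell without NTB gastrocnemius 2. The difference of the effects between muscles was called for 797 rows (3.35%), with a positive value in 414 (1.74%) and a negative one in 383 (1.61%). These became 212 to 238 and 207 to 257 without each heart array in turn, and 1089 and 594 without the third C26 gastrocnemius array. Among them were 146 of the 800 rises (119 larger in gastrocnemius, 27 larger in heart) and 89 of the 611 falls (84 and 5). Of the rises, 151 were also called in each muscle in the fit with 4 group means, 415 in gastrocnemius only, 120 in heart only and 114 in neither. The same counts for the falls were 65, 406, 50 and 90. Each effect below is the mean log2 value of C26 mice less that of NTB mice, with the standard error (SE) of the fit after ± and n = 6 arrays against 6. The adjusted p values are from limma. Counts of called list members below stand against the shares over all rows. On the average these were 3.36% for rises and 2.57% for falls. The shares in each muscle and for the difference are those given above.

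Among the 15 largest rises without overlap in either muscle were the acute phase genes Lcn2, Hp and C4b and the metallothioneins Mt1 and Mt2, as well as Cdkn1a, Apod, Scgb3a1 and Prg4, which are described further on. Lcn2 (lipocalin 2, which binds the iron carriers of bacteria) had log2 values of 11.39, 11.77 and 11.96 in C26 hearts against 7.36, 7.09 and 7.40 in NTB hearts. In gastrocnemius it had 7.63, 9.74 and 9.21 in C26 mice against 5.68, 5.95 and 5.61. Each C26 array lay above every NTB array of its muscle, with the first C26 gastrocnemius array the lowest of its group. Lcn2 rose by 3.77 ± 0.31 (13.6-fold; adjusted p = 1.1e-05), and its effects in heart (4.43) and gastrocnemius (3.11) were not called different (adjusted p = 0.259). Hp, whose product haptoglobin captures free haemoglobin, rose by 2.29 ± 0.31 (adjusted p = 0.000645). C4b, a complement component, rose by 2.16 ± 0.21, and Lbp, which presents bacterial lipopolysaccharide to its receptors, rose by 1.63 ± 0.16 with the same value of 1.63 in each muscle. In all, 10 of the 23 measured acute phase genes rose and 0 fell (0 also at an unadjusted p under 0.05, limma), against 3.36% and 2.57% of all rows, and the median of the list was 0.19 where that of all rows was 0.0012. Over the members on rows with a mean log2 over 5 the median was 0.82. Their rises numbered 8 to 10 when each array was left out in turn. Among the other leading rises were Lrg1, a secreted glycoprotein of the acute phase (2.05 ± 0.14), and the chemokines Cxcl13 (2.84 ± 0.39), which attracts B cells, and Ccl6 (1.85 ± 0.22).

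**Figure D2:**
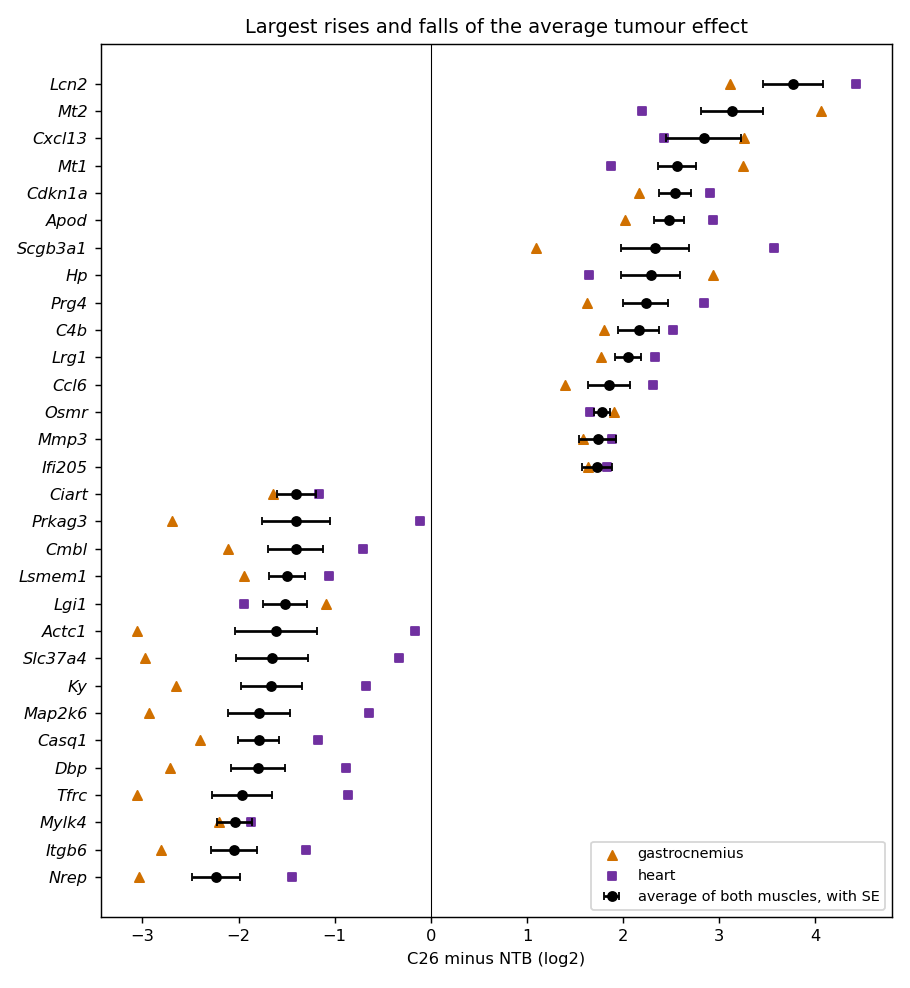
The difference of mean log2 values between C26 and NTB mice (x axis) is drawn for the 15 largest rises and the 15 largest falls on the average among genes whose C26 and NTB arrays did not overlap in either muscle; black circles give the average with its SE, orange triangles gastrocnemius and purple squares heart. Osmr, Ifi205 and Mylk4 have nearly equal values in both muscles, whereas Actc1, Prkag3 and Slc37a4 lie close to 0 in heart and near -3 in gastrocnemius.

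Some receptors and transducers of the interleukin-6 family were among the rises. Osmr, the receptor subunit for oncostatin M, had log2 values of 9.82, 9.91 and 9.90 in C26 hearts against 8.11, 8.17 and 8.37 in NTB hearts. The gastrocnemius values were 8.47, 8.50 and 8.37 against 6.59, 6.55 and 6.49. The groups were far apart in each muscle and narrow within. Osmr rose by 1.78 ± 0.086 (adjusted p = 8.06e-08), by 1.90 in gastrocnemius and 1.66 in heart. Stat3, the transcription factor these receptors activate, had 10.61, 10.72 and 10.71 in C26 hearts and 9.83, 9.81 and 9.72 in NTB hearts. Its values were 9.98, 10.01 and 9.75 in C26 gastrocnemius and 8.54, 8.84 and 8.54 in NTB gastrocnemius, again without overlap. Stat3 rose by 1.08 ± 0.098 (adjusted p = 2.37e-05).

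Of 28 measured genes of the interleukin-6 and STAT3 list 11 rose and 0 fell (0 also at an unadjusted p under 0.05, limma), with a median of 0.27 (0.28 in gastrocnemius and 0.34 in heart), and 10 to 13 rose when each array was left out. Il4ra, a receptor chain for interleukin 4, rose by 1.28 ± 0.15 and Myc, a transcription factor of growth, by 1.16 ± 0.15. Socs3, the feedback inhibitor that STAT3 induces, rose by 1.03 ± 0.13 (adjusted p = 0.000462) on the row with the higher signal, but its other row on the array gave 0.07 (adjusted p = 0.829), so its rows disagree. The Socs3 promoter in the RefSeq table held a STAT motif (TTCNNNGAA, searched on both strands and shown in capitals), at chr11:117969492-117969540 on the minus strand of GRCm38.p6, and 7.65% of the 14958 promoters of measured genes held at least as many before their start. This and the promoter stretches below are shown because they stand before genes called on the average.
Socs3: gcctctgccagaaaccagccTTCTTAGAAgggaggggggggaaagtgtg
Over whole promoter windows (250 bases before to 50 after the start), the motif was in 9.65% of the promoters of genes that rose and 6.81% of those that fell, against 8.91% of all. A match of letters is a description and no evidence of binding.

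The interferon response list had more falls than rises. Of 31 measured genes 1 rose and 4 fell, against 3.36% and 2.57% of all rows, with a median of -0.06. Ifi27l2a, an interferon-induced protein, rose by 0.57 ± 0.11, and Gbp7, a guanylate-binding GTPase, fell by 0.72 ± 0.13 (adjusted p = 0.00584). Ifit3 (-0.43) and Iigp1 (-0.45) were called lower, but lost the call in 8 and 9 of the 12 fits that left out an array, with adjusted p up to 0.0646 and 0.105. The falls numbered 1 without each of C26 heart 2 and 3, NTB heart 1 and 2, C26 gastrocnemius 2 and NTB gastrocnemius 1 and 2, and 2 without C26 gastrocnemius 1. The rises numbered 2 without NTB gastrocnemius 2. Ifi205, a member of the interferon-activated gene family outside this list, rose by 1.73 ± 0.16 with 1.63 in gastrocnemius and 1.83 in heart.

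Metallothioneins, small proteins that bind zinc and copper, rose strongly. Mt2 had log2 values of 13.63, 13.50 and 13.50 in C26 hearts against 11.34, 11.32 and 11.36 in NTB hearts. In gastrocnemius it had 12.40, 12.47 and 12.26 against 9.07, 8.64 and 7.24. C26 and NTB arrays did not overlap in either muscle, and the third NTB gastrocnemius array was the lowest of all. Mt2 rose by 3.13 ± 0.33 (8.76-fold; adjusted p = 9.52e-05), more in gastrocnemius (4.06) than in heart (2.20; adjusted p of the difference = 0.0314).

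Mt1 had 12.37, 12.27 and 12.32 in C26 hearts and 10.56, 10.44 and 10.33 in NTB hearts. It had 12.23, 12.44 and 12.62 in C26 gastrocnemius and 9.46, 9.07 and 9.01 in NTB gastrocnemius, so that the C26 arrays of both muscles lay close together while the NTB arrays lay apart. Mt1 rose by 2.56 ± 0.20 (adjusted p = 8.6e-06), by 3.25 in gastrocnemius and 1.88 in heart (adjusted p of the difference = 0.000776). Both genes lie on chromosome 8. The stretch before the Mt2 start held 5 copies of the metal response core TGCNCNC, on either strand and in capitals, at chr8:94172375-94172594 on the plus strand, and 0.481% of promoters held as many.
Mt2: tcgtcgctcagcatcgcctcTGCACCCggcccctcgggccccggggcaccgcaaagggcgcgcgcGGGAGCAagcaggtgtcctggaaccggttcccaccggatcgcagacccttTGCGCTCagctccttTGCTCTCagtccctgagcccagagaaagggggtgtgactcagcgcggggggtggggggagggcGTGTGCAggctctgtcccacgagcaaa
A single such core is common and was in 61.6% of the promoters of genes that rose, 66.2% of those that fell and 59.3% of all. The stricter TGCGCNC, which lies within it, was in 24.6%, 31.9% and 23.8%.

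The list of metallothioneins and genes of zinc and iron handling had calls in both directions, with 7 of 23 measured genes higher, both metallothioneins among them, 2 lower and a list median of 0.10. Hmox1, which breaks down haem, rose by 1.11 ± 0.16 (adjusted p = 0.00102), and Cp, the copper-carrying iron oxidase ceruloplasmin, by 0.86 ± 0.12. Tfrc, the transferrin receptor through which cells take up iron, fell. Its log2 values were 6.59, 6.90 and 7.15 in C26 hearts and 7.73, 7.82 and 7.67 in NTB hearts, and 7.41, 7.38 and 6.94 in C26 gastrocnemius against 10.11, 10.40 and 10.41 in NTB gastrocnemius. The groups did not overlap in either muscle, and the fall by 1.96 ± 0.31 on the average (adjusted p = 0.00194) was the mean of a fall by 3.06 in gastrocnemius and by 0.86 in heart (adjusted p of the difference = 0.000126). The other gene of the list that fell was Hjv, haemojuvelin, an iron-sensing co-receptor of muscle and liver (-0.77 ± 0.17, named after its values were seen).

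Genes known to be induced by glucocorticoids or FoxO factors had the highest list median of the 20 pathway lists, at 0.56 (0.93 in gastrocnemius, 0.30 in heart). Of 31 measured, 11 rose and 1 fell, against 3.36% and 2.57% of all rows. The rises numbered 8 to 13 with each array left out, and the fall of Sesn3, a stress-induced sestrin (-0.45, named after its values were seen), was lost without C26 heart 1, NTB heart 2, C26 gastrocnemius 1 or 2, or any of the 3 NTB gastrocnemius arrays. Both metallothioneins are also on this list. Fkbp5, a chaperone of the glucocorticoid receptor and a standard read-out of its activity, had log2 values of 8.28, 8.04 and 8.27 in C26 hearts and 6.73, 6.62 and 6.95 in NTB hearts. Its gastrocnemius values were 10.10, 10.68 and 10.71 against 9.32, 9.27 and 8.58, without overlap. Fkbp5 rose by 1.44 ± 0.14 (adjusted p = 6.79e-05), by 1.44 in gastrocnemius and 1.43 in heart. Cebpd, a transcription factor of the acute phase, rose by 1.50 ± 0.24 (adjusted p = 0.00208).

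Cdkn1a, which encodes the cell cycle inhibitor p21, had 10.61, 10.53 and 10.67 in C26 hearts and 7.38, 7.54 and 8.17 in NTB hearts. It had 8.83, 9.05 and 9.32 in C26 gastrocnemius and 6.68, 7.15 and 6.87 in NTB gastrocnemius. It rose by 2.54 ± 0.17 (5.8-fold; adjusted p = 1.04e-06), with no overlap in either muscle. The FoxO motif GTAAACA was in 4.19% of the promoters of genes that rose, 2.19% of those that fell and 3.46% of all. Of 21 measured genes of growth arrest and cell cycle entry 3 rose, Cdkn1a, Myc and Btg2 (0.74 ± 0.11), an antiproliferative co-regulator. Another 4 fell, led by Ccnd1, the cyclin D1 of cell cycle entry (-0.84 ± 0.12; adjusted p = 0.000952), and the falls numbered 2 without each of C26 heart 3, NTB heart 3, C26 gastrocnemius 2 and NTB gastrocnemius 2.

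**Figure D3:**
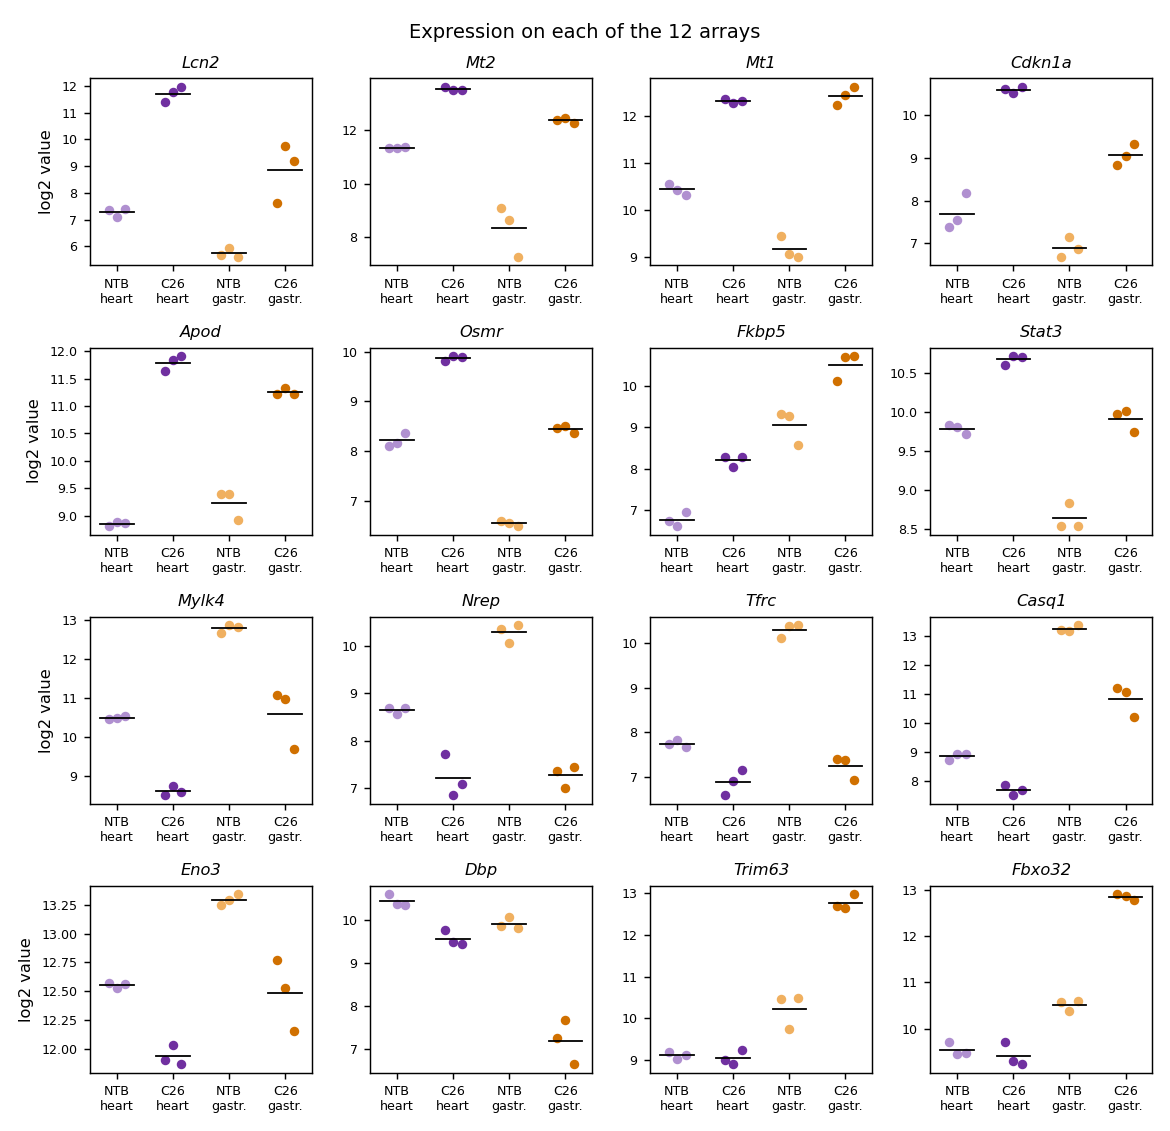
Log2 values (y axis, a separate range for each gene) of 16 genes on each of the 12 arrays, with points for single arrays, lines for group means, purple for heart and orange for gastrocnemius, and darker colours for C26 mice. In the panels of Lcn2 to Stat3 the C26 points lie above and in those of Mylk4 to Dbp below the NTB points of the same muscle, while Trim63 and Fbxo32 overlap in heart and are separate in gastrocnemius.

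The muscle-specific ubiquitin ligases that mark wasting did not pass the test on the average. Trim63, which encodes MuRF1, had log2 values of 12.68, 12.63 and 12.97 in C26 gastrocnemius and 10.45, 9.74 and 10.49 in NTB gastrocnemius. In heart it had 9.0, 8.90 and 9.24 against 9.19, 9.02 and 9.13. The groups were separate in gastrocnemius and overlapped in heart. Its average was 1.23 ± 0.36 (adjusted p = 0.0612), from 2.53 in gastrocnemius and -0.07 in heart, and the difference was called (adjusted p = 7.55e-05). Fbxo32, which encodes atrogin-1, had 12.90, 12.87 and 12.77 in C26 gastrocnemius and 10.59, 10.38 and 10.60 in NTB gastrocnemius, and 9.72, 9.32 and 9.24 in C26 hearts against 9.71, 9.47 and 9.49 in NTB hearts. Its average was 1.10 ± 0.33 (adjusted p = 0.0698), with the same pattern of separation and overlap and a called difference (adjusted p = 1.04e-05). The average of Trim63 passed without C26 heart 2 (adjusted p = 0.048) and that of Fbxo32 without C26 heart 3 (0.046) or NTB heart 1 (0.0491), over ranges up to 0.143 and 0.163. With the difference between muscles modelled instead of counted as spread, their averages were called (adjusted p = 2.9e-05 and 5e-06), and that of Trim63 also passed among rows with a mean log2 over 5 (adjusted p = 0.0496). Foxo1 (0.47 ± 0.17; adjusted p = 0.115) and Mstn, which encodes the growth inhibitor myostatin (-0.17 ± 0.12; adjusted p = 0.496), did not pass.

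Of 24 measured ubiquitin ligases and ubiquitin genes 3 rose and 2 fell, against 3.36% and 2.57% of all rows, with a median of 0.04. Fbxo31, a substrate receptor of SCF ubiquitin ligases, rose by 0.93 ± 0.13 (adjusted p = 0.000785) and Cblb, a ligase that limits insulin and immune receptor signalling, by 0.58 ± 0.11 (adjusted p = 0.00636). Ubb, a ubiquitin precursor gene, rose by 0.33 ± 0.086 and lost the call in 5 of the 12 fits without an array (each C26 gastrocnemius array but the third, and all 3 NTB gastrocnemius arrays, with an adjusted p of at most 0.0918). Fbxl22 (-0.48), an F-box protein of the muscle Z-disc, and Wwp1 (-0.49, named after its values were seen), a ubiquitin ligase, were called lower. With an array left out the falls numbered 0 without C26 heart 2 or NTB heart 2 or 3. They numbered 1 without C26 heart 3, NTB heart 1, C26 gastrocnemius 2 or any NTB gastrocnemius array.

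Proteasome subunits had a median of 0.32, with 0.62 in gastrocnemius and -0.02 in heart, and 31 of 37 had a positive average. On the average 6 rose and 0 fell (18 and 1 at an unadjusted p under 0.05, limma). In gastrocnemius 25 rose and in heart 0 were called (0 higher and 2 lower at an unadjusted p under 0.05). The effects of 12 differed between muscles. Over all rows 6.08% rose in gastrocnemius, 1.75% rose in heart and 3.35% differed, so the count of 0 in heart is near the share of all rows. With each muscle fitted alone 15 rose in gastrocnemius and 0 in heart, where 1 fell. Psmd2, Psmd4, Psma7 and Psmc3, subunits of the regulatory and core particles, rose by 0.60 ± 0.14, 0.76 ± 0.18, 0.86 ± 0.21 and 0.44 ± 0.11. They lost the call in 1, 3, 4 and 8 of the 12 fits without an array, with adjusted p up to 0.0524, 0.0607, 0.0697 and 0.0697. Psma7, a core subunit, was 1.59 in gastrocnemius and 0.12 in heart (adjusted p of the difference = 0.000195). With the difference between muscles modelled, 17 rose on the average. The count changed when single arrays were left out, and the rises numbered 0, 1 and 1 without NTB gastrocnemius 1, 2 and 3, 3 and 2 without C26 gastrocnemius 1 and 2, and 3 without C26 heart 2.

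Of 39 measured genes of autophagy and the lysosome 10 rose and 2 fell, and the median was 0.15. In both muscles 11 lay above without overlap. Over all rows 3.36% rose, 2.57% fell and 3.09% lay above without overlap in both muscles. Ctsl, the lysosomal protease cathepsin L, rose by 1.29 ± 0.15 (adjusted p = 0.000276), by 1.79 in gastrocnemius and 0.79 in heart (adjusted p of the difference = 0.00285). Bnip3, a mitophagy receptor, rose by 1.08 ± 0.16, Map1lc3b, which coats autophagosomes, by 0.85 ± 0.15, and Atp6v1h, a subunit of the proton pump of lysosomes, by 0.73 ± 0.12. The rises numbered 7 to 10 with each array left out. The falls of Fundc1 (-0.41), a mitophagy receptor, and Trp53inp2 (-0.85), an autophagy co-factor, both named after their values were seen, numbered 0 without C26 heart 3, NTB heart 1, C26 gastrocnemius 2 or any NTB gastrocnemius array. They numbered 1 without C26 heart 1 or 2, NTB heart 2, or C26 gastrocnemius 1 or 3.

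Of 40 measured ribosome biogenesis genes 9 rose and 0 fell (25 and 1 at an unadjusted p under 0.05, limma), 37 had a positive average, and the median was 0.34 (0.62 in gastrocnemius and 0.09 in heart). Gnl3, the nucleolar protein nucleostemin, rose by 0.89 ± 0.17 (adjusted p = 0.00675), by 1.45 in gastrocnemius and 0.33 in heart (adjusted p of the difference = 0.00232). Rrp12, Heatr1 and Wdr43, nucleolar factors of ribosomal RNA processing, rose by 0.72 ± 0.13, 0.58 ± 0.13 and 0.57 ± 0.12. The rises of the list numbered 4 without C26 gastrocnemius 2 and without each NTB gastrocnemius array. In gastrocnemius 24 rose, and in heart 0 of the 40 were called (3 higher and 1 lower at an unadjusted p under 0.05). Over all rows 6.08% rose in gastrocnemius, and 1.75% rose and 0.932% fell in heart. The count of 0 in heart is near that share. With each muscle fitted alone 13 rose in gastrocnemius, and 1 rose and 1 fell in heart.

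Of 30 measured genes of the unfolded protein response and the chaperones of the endoplasmic reticulum (ER) 9 rose and 0 fell (20 and 0 at an unadjusted p under 0.05, limma), with medians of 0.33 on the average, 0.25 in gastrocnemius and 0.31 in heart. Edem1, which directs misfolded proteins out of the ER, rose by 0.82 ± 0.098 (adjusted p = 0.000267). P4hb, a protein disulphide isomerase, rose by 0.54 ± 0.080, Xbp1, a transcription factor of this response, by 0.67 ± 0.12, and Calr, the chaperone calreticulin, by 0.35 ± 0.072. The effects of these 4 genes were not called different between the muscles (adjusted p = 0.184 to 0.98). This is largely fixed by their choice, since the fit counts a difference between muscles as spread and so favours equal effects. Among all 30 the difference was called for 3. The rises numbered 5 without C26 heart 2.

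Genes of mitochondrial energy supply were among the falls. Of 74 measured subunits of oxidative phosphorylation 0 rose and 20 fell (0 and 60 at an unadjusted p under 0.05, limma), 72 had a negative average, and the median was -0.38 (-0.58 in gastrocnemius and -0.18 in heart). In gastrocnemius 35 fell and in heart 0 were called (0 higher and 9 lower at an unadjusted p under 0.05). The difference between muscles was called for 2. Over all rows 4.74% fell in gastrocnemius, 0.932% fell in heart and 3.35% differed. The counts in heart and for the difference are near those shares. With each muscle fitted alone 9 fell in gastrocnemius and 21 in heart. In 30 of them the C26 arrays lay below the NTB arrays without overlap in both muscles, against 2.93% of all rows. Cycs, cytochrome c, fell by 0.59 ± 0.11 (adjusted p = 0.00688). A further row of Cycs also passed (-0.59) and the remaining row did not (-0.40; adjusted p = 0.208). Sdhd, a subunit of complex II, fell by 0.61 ± 0.12, Ndufs1, the largest subunit of complex I, by 0.55 ± 0.12, and Uqcrc2, a core subunit of complex III, by 0.31 ± 0.068. With the difference between muscles modelled, 33 fell. The falls of the list numbered 12 without C26 gastrocnemius 2, and 9, 10 and 8 without NTB gastrocnemius 1, 2 and 3.

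Pyruvate oxidation and the citric acid cycle had the highest share of falls among the 20 pathway lists, with 14 of 26 measured genes lower, 0 higher (0 also at an unadjusted p under 0.05, limma) and a median of -0.36 (-0.51 and -0.25). Sucla2 and Suclg1, subunits of succinyl-CoA synthetase, fell by 0.58 ± 0.093 and 0.53 ± 0.086 (adjusted p = 0.00198 and 0.00228). Pdp1, the phosphatase that activates pyruvate dehydrogenase, fell by 1.15 ± 0.19, by 1.76 in gastrocnemius and 0.54 in heart (adjusted p of the difference = 0.00518). Dlat, a core subunit of pyruvate dehydrogenase, fell by 0.68 ± 0.12. The falls numbered 9 without NTB gastrocnemius 1. In gastrocnemius 17 fell and in heart 1, against 4.74% and 0.932% of all rows, and the difference between muscles was called for 3. With each muscle fitted alone 4 fell in gastrocnemius and 16 in heart, so which muscle had more calls depended on the fit.

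Glycolysis and glycogen genes fell in 9 of 34 cases and rose in 1, with a median of -0.26 (-0.32 in gastrocnemius and -0.07 in heart). In gastrocnemius 15 fell and 3 rose, and in heart 4 fell and 1 rose. With each muscle fitted alone 7 fell and 2 rose in gastrocnemius, and 8 fell and 5 rose in heart. Eno3, the muscle enolase, had log2 values of 11.91, 12.04 and 11.87 in C26 hearts against 12.57, 12.53 and 12.56 in NTB hearts. In gastrocnemius it had 12.77, 12.53 and 12.16 against 13.25, 13.29 and 13.34. The C26 arrays lay below the NTB arrays in each muscle, and the third C26 gastrocnemius array was the lowest of its group. Eno3 fell by 0.71 ± 0.089 (adjusted p = 0.000366). Pgam2, the muscle phosphoglycerate mutase, fell by 0.78 ± 0.11, Pkm, pyruvate kinase, by 0.70 ± 0.10, and Pfkm, the muscle phosphofructokinase, by 0.44 ± 0.077. The effects of these 4 genes were not called different between muscles (adjusted p = 0.0701 to 0.833), which their choice by the fit of the average favours. Among all 34 the difference was called for 6. The rise of Pgm1, phosphoglucomutase (0.34, named after its values were seen), held only without C26 gastrocnemius 3 and was lost without each of the other 11 arrays.

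The fatty acid list, which covers uptake, storage and oxidation, had calls both ways, with 8 of 40 higher, 4 lower and a median of 0.11. The medians were 0.33 in gastrocnemius and -0.03 in heart. In gastrocnemius 13 rose and 3 fell, and in heart 2 rose and 0 fell (5 and 9 at an unadjusted p under 0.05, limma). With each muscle fitted alone 10 rose and 1 fell in gastrocnemius, and 4 rose and 7 fell in heart. Ucp2, a mitochondrial carrier, rose by 1.14 ± 0.17 (adjusted p = 0.00126), Plin2, which coats lipid droplets, by 0.78 ± 0.15, and Cd36, a fatty acid transporter, by 0.56 ± 0.10. Acaa2, the thiolase of mitochondrial fatty acid oxidation, fell by 0.60 ± 0.12. The rises numbered 5 without NTB gastrocnemius 3, and the falls numbered 2 without each of C26 heart 3, NTB heart 1, C26 gastrocnemius 2 and NTB gastrocnemius 1 and 3.

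**Figure D4:**
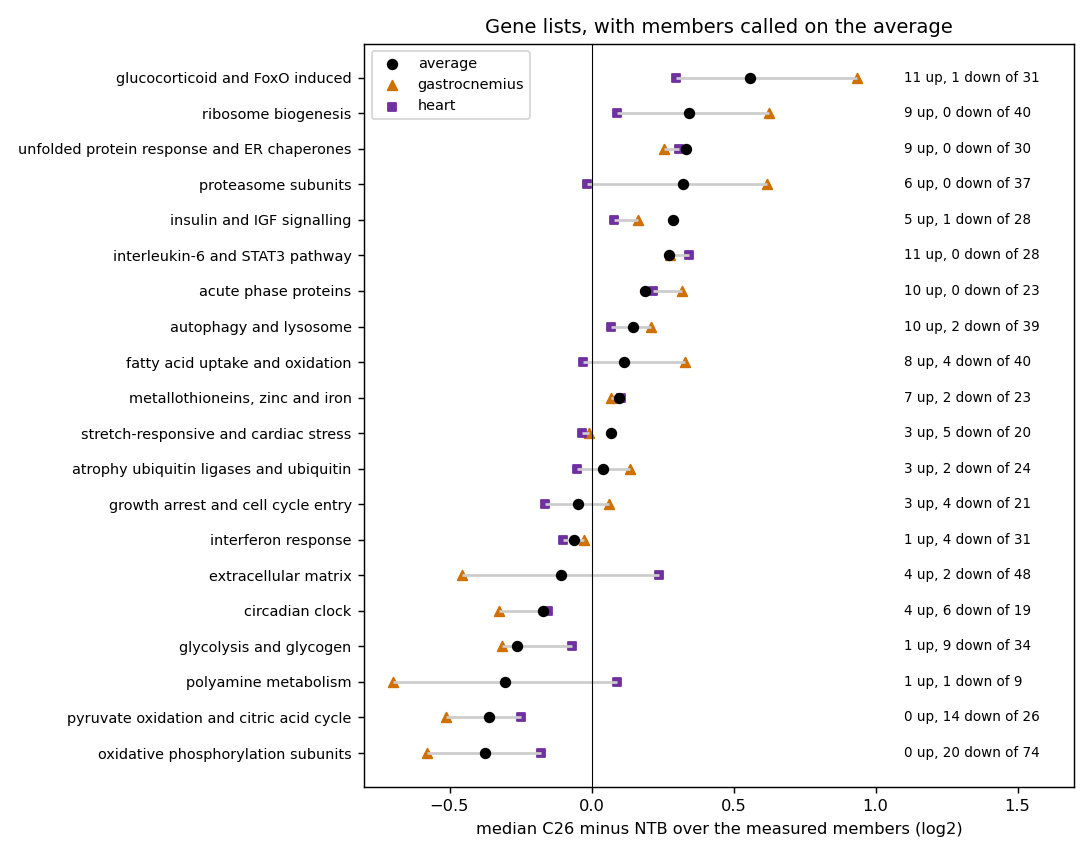
Median C26 minus NTB difference of log2 values (x axis) over the measured members of 20 gene lists, on the average (black), in gastrocnemius (orange) and in heart (purple), with the members called on the average at the right. The list of genes induced by glucocorticoids and FoxO lies highest at 0.56 and the oxidative phosphorylation list lowest at -0.38; the extracellular matrix list has a negative median in gastrocnemius (-0.46) and a positive one in heart (0.24).

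Several genes of the contractile and calcium apparatus were among the largest falls. Mylk4, a member of the myosin light chain kinase family expressed in striated muscle, had 8.51, 8.74 and 8.60 in C26 hearts and 10.46, 10.48 and 10.53 in NTB hearts. The gastrocnemius values were 11.07, 10.97 and 9.69 against 12.67, 12.86 and 12.82. The groups did not overlap, and the third C26 gastrocnemius array was the lowest in its muscle. Mylk4 fell by 2.04 ± 0.18 (adjusted p = 2.37e-05), by 2.21 in gastrocnemius and by 1.87 in heart.

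Casq1, calsequestrin of the sarcoplasmic reticulum, which stores calcium in fast fibres, had 11.20, 11.08 and 10.22 in C26 gastrocnemius and 13.19, 13.17 and 13.36 in NTB gastrocnemius. In heart it had 7.88, 7.53 and 7.71 against 8.75, 8.94 and 8.95. It fell by 1.79 ± 0.21 (adjusted p = 0.000267) without overlap in either muscle, and more in gastrocnemius (adjusted p of the difference = 0.028). Myl1, a light chain of fast myosin, fell by 1.02 ± 0.19 (adjusted p = 0.00522).

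Of 15 skeletal fibre markers 4 fell and 0 rose (6 and 0 at an unadjusted p under 0.05, limma). Ckm, muscle creatine kinase (-0.29), and Cacna1s, the calcium channel of the T-tubule (-0.53), lost the call in 8 and 9 of the fits without an array (adjusted p up to 0.0761 and 0.112), and the other Ckm row did not pass (-0.24; adjusted p = 0.125). The falls numbered 2 without each of C26 heart 1 and 3, NTB heart 1 and 3, C26 gastrocnemius 2 and NTB gastrocnemius 2. Actc1, cardiac alpha-actin, fell by 1.61 ± 0.42 on the average, but by 3.06 in gastrocnemius, and its value in heart was -0.16. Its call was lost, with adjusted p up to 0.0961, without C26 gastrocnemius 1 or 2 or any NTB array of that muscle. It was the member called lower of 14 heart muscle markers, whose falls numbered 0 without C26 gastrocnemius 2 or NTB gastrocnemius 1 or 3, 2 without C26 gastrocnemius 1 and 3 without C26 gastrocnemius 3.

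Stretch-responsive and cardiac stress genes were mixed, with 3 of 20 higher, 5 lower and 10 with effects that differed between muscles. Ankrd2, an ankyrin repeat protein of the sarcomere, rose by 0.90 ± 0.21 (1.60 in gastrocnemius, 0.20 in heart). Xirp2, an actin-binding Xin repeat protein, fell by 0.44 ± 0.096, Tcap, which caps titin, by 0.52 ± 0.12, and Acta1, skeletal alpha-actin, by 0.34 ± 0.084. Xirp2 kept the call without each array, while Ankrd2, Tcap and Acta1 lost it in 4, 3 and 7 of the 12 fits. The rises numbered 0 without C26 gastrocnemius 2 or any NTB gastrocnemius array and 1 without C26 gastrocnemius 1. The falls numbered 1 without NTB gastrocnemius 3, 2 without NTB heart 1 or 3 and 3 without any other array but C26 gastrocnemius 3.

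The leading fall was that of Nrep, a small cytoplasmic protein first described in regenerating neurons. Its log2 values were 7.72, 6.84 and 7.07 in C26 hearts and 8.69, 8.56 and 8.69 in NTB hearts, and 7.36, 6.99 and 7.44 in C26 gastrocnemius against 10.36, 10.08 and 10.45 in NTB gastrocnemius. The C26 arrays lay below the NTB arrays of their muscle throughout. Nrep fell by 2.24 ± 0.25 (adjusted p = 0.000172). Itgb6, an integrin subunit that activates TGF-beta, fell by 2.05 ± 0.24, and Map2k6, a kinase that activates p38, by 1.78 ± 0.32. Nrep, Itgb6 and Map2k6 each fell more in gastrocnemius, with gastrocnemius minus heart differences of -1.59, -1.50 and -2.29. Map2k6 was not called in heart (adjusted p = 0.0511, limma).

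Ky, a muscle protein whose loss gives kyphoscoliosis in mice, fell by 1.66 ± 0.31, and more in gastrocnemius (gastrocnemius minus heart difference of -1.98). Lgi1, a secreted leucine-rich repeat protein, fell by 1.52 ± 0.23, by 1.09 in gastrocnemius and by 1.94 in heart. Lsmem1, a membrane protein, fell by 1.50 ± 0.19 and Cmbl, a hydrolase, by 1.41 ± 0.29. Slc37a4, which carries glucose 6-phosphate into the ER, fell by 1.65 ± 0.38 and Prkag3, a subunit of AMP-activated kinase of fast fibres, by 1.40 ± 0.36. Both averages came mainly from gastrocnemius, with called gastrocnemius minus heart differences of -2.65 and -2.58. In heart Slc37a4 lay at 7.46 to 7.56 in C26 mice against 7.82 to 7.86, and Prkag3 at 6.88 to 6.97 against 7.02 to 7.07. In gastrocnemius the ranges were 7.25 to 8.33 against 10.85 to 11.03, and 7.21 to 7.92 against 10.29 to 10.42. Without C26 gastrocnemius 2 or any NTB array of that muscle the call of Slc37a4 was lost, with an adjusted p of at most 0.054, and without those or C26 gastrocnemius 1 that of Prkag3, with at most 0.0832.

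Among the large rises outside the lists was Apod, a lipocalin that carries lipids, with 11.63, 11.83 and 11.91 in C26 hearts and 8.81, 8.89 and 8.86 in NTB hearts. In gastrocnemius it had 11.21, 11.33 and 11.22 against 9.40, 9.39 and 8.92, and the groups did not overlap in either muscle. Apod rose by 2.48 ± 0.15 (adjusted p = 6.83e-07), more in heart than in gastrocnemius (adjusted p of the difference = 0.0129). Scgb3a1, a secretoglobin, rose by 2.33 ± 0.35, with 3.57 in heart and 1.09 in gastrocnemius (adjusted p of the difference = 0.00024). Prg4, the lubricating glycoprotein of joints and tendons, rose by 2.24 ± 0.23, and Mmp3, the matrix protease stromelysin 1, by 1.73 ± 0.20.

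The extracellular matrix list had medians of opposite sign in the muscles. Of 48 measured genes 4 rose and 2 fell on the average, against 3.36% and 2.57% of all rows, with a median of -0.11. In gastrocnemius 22 fell and 2 rose (median -0.46), in heart 6 rose and 0 fell (21 and 2 at an unadjusted p under 0.05, limma; median 0.24), and the difference was called for 16. With each muscle fitted alone, 9 fell and 1 rose in gastrocnemius, and 20 rose and 3 fell in heart. The 14 fibroblast markers, 4 of which (Col1a1, Col3a1, Dcn and Lum) are also on the matrix list, had medians of -0.23 in gastrocnemius and 0.38 in heart. Their median level lay at 8.67 to 9.09 in C26 hearts against 8.11 to 8.32 in NTB hearts, and at 7.88 to 8.06 in C26 gastrocnemius against 8.19 to 8.55, without overlap in either muscle, and their part in the matrix values was not tested. Lox, the enzyme that crosslinks collagen, rose by 1.31 ± 0.13 (adjusted p = 4.91e-05), by 1.16 in gastrocnemius and 1.47 in heart, and Fbln1, a matrix glycoprotein, rose by 0.89 ± 0.12. Fmod, a collagen-binding proteoglycan of tendon, fell by 1.21 ± 0.26, and Ogn, a small leucine-rich proteoglycan, by 0.93 ± 0.18. The falls numbered 4 without C26 heart 1.

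Circadian clock genes were called in both directions. The clock is a loop in which the activators CLOCK, BMAL1 (Arntl) and NPAS2 bind E-boxes and drive their own repressors, and in which DBP, TEF and HLF drive and NFIL3 represses genes with D-boxes. Of 19 measured genes 4 rose and 6 fell, and 4 to 5 rose and 6 fell with each array left out. The labels used here give no time of day at which tissue was taken. Dbp had log2 values of 9.77, 9.47 and 9.43 in C26 hearts against 10.59, 10.37 and 10.33 in NTB hearts, and 7.26, 7.67 and 6.64 in C26 gastrocnemius against 9.86, 10.06 and 9.80 in NTB gastrocnemius. Its C26 arrays lay below the NTB arrays in each muscle, and it fell by 1.80 ± 0.28 (adjusted p = 0.0017), by 2.72 in gastrocnemius and by 0.88 in heart (adjusted p of the difference = 0.00251). Hlf fell by 0.81 ± 0.088 (adjusted p = 0.000135) with -0.80 and -0.83 in the muscles.

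Ciart, a repressor of the clock, fell by 1.40 ± 0.20 (adjusted p = 0.00112) and Bhlhe41, a repressor that binds E-boxes, by 1.40 ± 0.18 (adjusted p = 0.000571). The other genes that fell, named after their values were seen, were Per3, a period gene of the repressor arm (-0.73 ± 0.11), and Tef (-0.48 ± 0.087). The rises, likewise named after their values were seen, were Nfil3 (1.39 ± 0.22), Arntl (1.23 ± 0.20), Npas2 (0.48 ± 0.11) and Clock (0.43 ± 0.086). On the average, the genes that rose thus included the activators of the loop and the D-box repressor, and those that fell included the D-box activators. Fitted with 4 group means, 6 of the list rose and 8 fell in gastrocnemius. In heart 0 rose and 6 fell (4 and 6 at an unadjusted p under 0.05, limma), so the rises were not called there. With heart fitted alone 3 rose and 6 fell. The difference between muscles was called for 4. The promoters of Ciart and Bhlhe41 held the E-box CACGTG and that of Per3 the D-box TTATGNAA, shown in capitals from RefSeq stretches of GRCm38.p6 on the minus strand. They lie at chr3:95882247-95882364, chr6:145865548-145865593 and chr4:151044796-151044890.
Ciart: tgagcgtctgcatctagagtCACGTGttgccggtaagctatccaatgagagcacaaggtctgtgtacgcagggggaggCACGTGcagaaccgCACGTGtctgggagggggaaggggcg
Bhlhe41: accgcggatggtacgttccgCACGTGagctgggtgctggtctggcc
Per3: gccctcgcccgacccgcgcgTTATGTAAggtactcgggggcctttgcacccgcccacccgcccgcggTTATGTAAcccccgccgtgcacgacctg
Before the start, 0.107% of promoters held as many E-boxes as Ciart (3), 8.3% as many as Bhlhe41 (1) and 0.134% as many D-boxes as Per3 (2). Over the whole windows and both strands, an E-box was in 12.9% of the promoters of genes that rose, 8.03% of those that fell and 9.67% of all, and a D-box in 4.74%, 3.16% and 3.48%.

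Among 28 measured genes of insulin and insulin-like growth factor signalling 5 rose and 1 fell, with a median of 0.29. That is above the median of either muscle, 0.16 in gastrocnemius and 0.08 in heart. In gastrocnemius 9 rose and 4 fell, and in heart 2 rose and 1 fell. The difference between muscles was called for 8, against 3.35% of all rows. Grb14, an adaptor that inhibits the insulin receptor, fell by 1.09 ± 0.14 (adjusted p = 0.000462), and Igf1r, the receptor for insulin-like growth factor 1, rose by 0.52 ± 0.11. Igfbp4, a binding protein of these factors, rose by 0.89 ± 0.19, with 1.39 in heart and 0.40 in gastrocnemius. Ddit4, an inhibitor of mTOR complex 1, rose by 1.19 ± 0.31 and lost the call in 8 of the 12 fits without an array (adjusted p up to 0.0894). The rises numbered 2 without NTB heart 2, C26 gastrocnemius 2 or NTB gastrocnemius 3, and 3 without C26 heart 3, NTB heart 1 or NTB gastrocnemius 1 or 2.

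Of 9 polyamine genes 1 rose and 1 fell, against 3.36% and 2.57% of all rows. Sat1, the enzyme that starts the breakdown of polyamines, rose by 0.93 ± 0.13 (adjusted p = 0.000776) with 0.98 in gastrocnemius and 0.87 in heart. Oaz2, an antizyme that inhibits polyamine synthesis, fell by 0.78 ± 0.19, a call lost without each NTB gastrocnemius array, with an adjusted p of at most 0.058. With an array left out there were 2 rises without C26 gastrocnemius 3, and 2 falls without C26 heart 2, NTB heart 1 or 2 or C26 gastrocnemius 3.

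Some markers of cells other than muscle were higher as well. All 15 macrophage markers had a positive average, with a median of 0.49 (0.76 in heart and 0.18 in gastrocnemius), and 4 rose (12 at an unadjusted p under 0.05). Their median level lay at 8.13 to 8.30 in C26 hearts and 7.18 to 7.48 in NTB hearts, without overlap. It lay at 6.39 to 7.30 in C26 gastrocnemius and 6.39 to 6.85 in NTB gastrocnemius, where the groups overlapped. Cd68, a lysosomal protein of macrophages, rose by 0.86 ± 0.11 (adjusted p = 0.000493) and Lyz2, lysozyme, by 0.66 ± 0.15. C1qb, a complement chain (0.78), and Cd163, the haemoglobin scavenger receptor (1.01), lost the call in 10 of the 12 fits. The rises numbered 9 without C26 gastrocnemius 1 and 2 without every other array but NTB gastrocnemius 2. Their part in the rises of Lcn2, C4b, Ccl6, Hmox1 and the lysosomal genes was not tested.

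Of 14 endothelial markers 3 rose and 0 fell (6 and 1 at an unadjusted p under 0.05, limma), led by Vwf, von Willebrand factor (0.69 ± 0.10), and Pecam1, an adhesion protein (0.41 ± 0.087). The list went both ways, with 8 averages above 0 and 6 below, the lowest at -0.34. Its median was 0.07, with 0.17 in gastrocnemius and -0.02 in heart. Under some alternatives, among them 4 group means, quantile normalization and the fit without C26 heart 1, 1 marker fell. Cldn5, the claudin of endothelial junctions (0.52), lost the call in 7 of the 12 fits, and 6 markers rose without C26 gastrocnemius 3. Of 9 red cell markers 3 rose, each with the larger value in gastrocnemius. Alas2, the first enzyme of haem synthesis in red cells, was 1.21 in gastrocnemius and 0.44 in heart. The globin genes Hba-a1 (0.72) and Hbb-b1 (0.63) have near-identical copies that the array may not separate. In heart their C26 and NTB arrays overlapped, at 12.42 to 12.69 against 12.14 to 12.67 and at 12.87 to 13.41 against 12.92 to 13.26. In gastrocnemius they lay apart, at 11.68 to 11.91 against 10.32 to 10.58 and at 12.70 to 13.03 against 11.57 to 11.80. In heart 0 of the 9 markers were called. On the average 1 marker rose without each of C26 gastrocnemius 2 and the 3 NTB gastrocnemius arrays.

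Of 13 neutrophil markers 1 rose, against 3.36% of all rows. It was Cxcr2, a chemokine receptor (0.54 ± 0.11). Its log2 values were low, at 3.20 to 4.28 where the array medians were 5.93 to 6.09. Among rows with a mean log2 over 5, 0 neutrophil markers rose. Of 14 fibroblast markers 1 rose, against 3.36% of all rows. It was Ly6a, a surface antigen of progenitor cells (0.79 ± 0.14). In gastrocnemius 4 fell and 1 rose, in heart 3 rose and 0 fell (10 and 0 at an unadjusted p under 0.05, limma), and the effects of 6 differed between muscles. With each muscle fitted alone 4 fell and 0 rose in gastrocnemius and 9 rose and 0 fell in heart. On the average 3 rose without C26 gastrocnemius 1 and 2 without NTB gastrocnemius 2. Of 10 adipocyte markers 1 rose, Lipe, the hormone-sensitive lipase (0.54 ± 0.12), whose other row did not pass (0.20; adjusted p = 0.489), and 3 rose without C26 gastrocnemius 1. Of 13 lymphocyte and 12 epithelial and carcinoma markers 0 were called by limma (0 and 0 at an unadjusted p under 0.05), with medians of 0.13 and 0.01.

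Genes that were called in both muscles with opposite signs were 22 in number, 17 higher in heart and lower in gastrocnemius and 5 the reverse, and 0 of them were called on the average. Pla2g7, a secreted phospholipase of macrophages, was 1.64 in heart and -1.49 in gastrocnemius (adjusted p of the difference = 8.05e-07) and had an average of 0.07 ± 0.42. Cbr2, a carbonyl reductase, was 1.11 and -1.97, Tmtc1, a mannosyltransferase of the ER, 1.10 and -1.15, Dpt, the matrix protein dermatopontin, 1.06 and -1.19, and Phka1, a subunit of phosphorylase kinase, 0.81 and -1.58. The reverse was seen for Klhl30, a kelch protein (-0.85 in heart and 0.97 in gastrocnemius), Ipo13, a nuclear transport receptor (-0.68 and 0.68), Nabp1, a binding protein of single-stranded DNA (-0.55 and 0.74), Fdft1, squalene synthase (-0.52 and 0.87), and Ivns1abp, an actin-binding kelch protein (-0.39 and 0.84).

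Some averages came mainly from 1 muscle. Srpx, a sushi-repeat protein, rose by 1.68 ± 0.41 on the average, from 3.17 in heart and 0.19 in gastrocnemius (adjusted p of the difference = 1.04e-05), and lost the call without any 1 of the 6 heart arrays (adjusted p up to 0.0604). Cnksr1, a signalling scaffold, rose by 1.62 ± 0.29 and kept the call without each array, with 2.62 in gastrocnemius and 0.63 in heart. Acss1, a mitochondrial acetyl-CoA synthetase, rose by 1.19 ± 0.27, with 2.15 and 0.23, and lost the call without C26 gastrocnemius 2 or NTB gastrocnemius 1. Egln3, an oxygen-dependent prolyl hydroxylase, was 1.20 on the average with 2.19 and 0.20, and Eif4ebp1, an inhibitor of translation, 1.01 with 1.98 and 0.03. Ctxn3, a small membrane protein, was 1.11 with 2.14 and 0.07, and Tnmd, a tendon membrane protein, -1.34 with -2.66 and -0.03. These last 4 lost the call in 4, 7, 7 and 8 of the 12 fits, with adjusted p up to 0.0651, 0.11, 0.117 and 0.12.

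Of 283 measured microRNA genes 1 was called by limma, where 5.92% of all rows were, and 13 had an unadjusted p under 0.05. Mir181b-2, named after its values were seen, fell by 0.73 ± 0.099 (adjusted p = 0.000662), by 0.69 in gastrocnemius and by 0.77 in heart, without overlap in either muscle. The array row measures RNA from the locus of the hairpin and not the mature microRNA. The mature sequences from RefSeq (GRCm38.p6, plus strand, chr2:38853845-38853868 and chr2:38853883-38853904) are shown for this gene with the seed, bases 2 to 8, in capitals.
miR-181b-5p: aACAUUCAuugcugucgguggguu
miR-181b-2-3p: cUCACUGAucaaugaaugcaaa

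**Figure D5:**
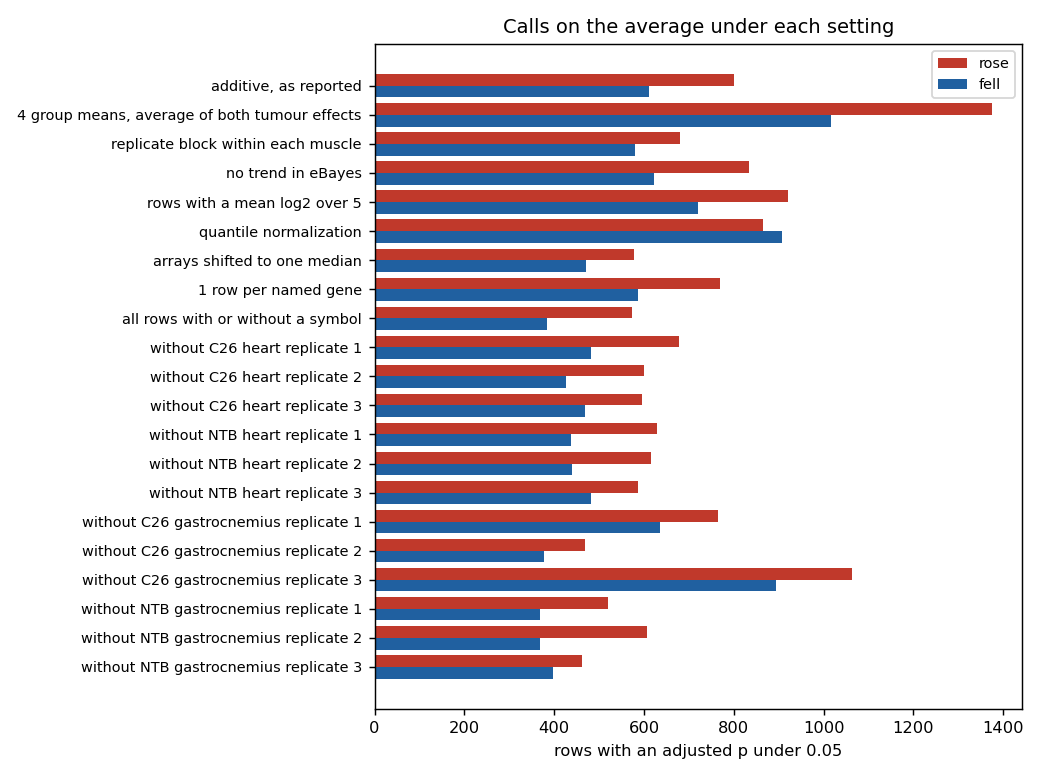
Number of rows with an adjusted p under 0.05 on the average (x axis) that rose (red) or fell (blue) under each setting of the fit, the first as reported and the last 12 each without 1 array. The counts are highest with 4 group means (1374 and 1017), and among fits without an array they are highest without the third C26 gastrocnemius array (1063 and 893).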

How the data were processed

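Expression was measured in 12 samples, 3 in each of 4 groups taken from the sample titles. The deposited values are log2 expression values that the authors made with RMA; RMA, GCOS, Partek and build mm8 are named per the submitters' processing notes, without versions or roles. The range of the deposited values gave the log2 scale; a joint normalization of the 12 arrays is not given in the sources used here. The 12 per-sample columns of a further deposited table, whose headers are codes that match no sample title, were not used; that table gave only the gene symbols, which are cut at 7 characters. One cut in this way was named where a single gene of the RefSeq table (GRCm38.p6) fitted it; 21798 of 23819 rows with a symbol were named, for 19383 genes, and of 1346 genes with several rows the row with the highest mean was used.

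In R 4.3.3 with limma 3.58.1, log2 values were fitted on muscle and tumour (9 residual degrees of freedom, 5.58 from the prior at the median, variance trend, two-sided tests) and, for each muscle and the difference, on 4 group means. Adjustment was by Benjamini-Hochberg over 23819 rows, with calls at 0.05. The fits were tested on simulated data with known changes. No dim rows were removed. The alternatives were 4 group means, a replicate block, no trend, a mean log2 over 5, quantile or median scaling, 1 row per gene, all 35556 rows, each muscle alone and each array left out.

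Genes, 30 lists (754 of 773 entries measured) and lists of cell markers were chosen with earlier results of these data known. Named are the 15 largest rises and falls without overlap in both muscles, up to 4 called members per list with the smallest adjusted p, the 5 largest differences in each direction among called genes, up to 5 genes of opposite sign in each direction, and 10 fixed genes; predicted genes were left out. A list's level is the median log2 value of its members. Replicate numbers were checked as pairs: same-numbered C26 and NTB samples correlated in their deviations at 0.380, 0.334 and 0.552 in gastrocnemius but at 0.097, -0.043 and 0.027 in heart, so they were not taken as pairs. No pair of arrays was identical. Array batches were not analysed here. Promoters and mature microRNAs are from RefSeq tables; 14958 of the named genes had a promoter.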

Additional observations from a re-analysis of the deposited data

Results flagged for a closer look

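For 49 of the genes named above the tumour effect differed between the muscles at an adjusted p under 0.05 (limma, difference of effects over 23819 rows). Over all rows 3.35% did. The count of 49 is partly fixed by the naming, since some genes were named for the size of this difference or for opposite signs in the muscles. The values that follow are gastrocnemius minus heart differences on the log2 scale, and what lies behind them was not tested. The sign does not say which muscle changed. For only some of these genes are the values of each muscle given in the text above. A more negative or less positive effect in gastrocnemius was found for Pla2g7 (-3.14), Cbr2 (-3.08), Srpx (-2.98), Actc1 (-2.90), Slc37a4 (-2.65), Tnmd (-2.62), Prkag3 (-2.58), Scgb3a1 (-2.48) and Phka1 (-2.40). It was also found for Map2k6 (-2.29), Tmtc1 (-2.25), Dpt (-2.25), Tfrc (-2.20), Ky (-1.98), Dbp (-1.84), Nrep (-1.59), Fmod (-1.55) and Itgb6 (-1.50). Smaller values of this sign were those of Casq1 (-1.23), Pdp1 (-1.22), Apod (-0.92), Grb14 (-0.78) and Ndufs1 (-0.64).

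A more positive or less negative effect in gastrocnemius was found for Trim63 (2.60), Fbxo32 (2.45), Ctxn3 (2.08), Cnksr1 (1.99), Egln3 (1.99), Eif4ebp1 (1.95), Acss1 (1.92), Mt2 (1.86), Klhl30 (1.82) and Psma7 (1.46). It was also found for Fdft1 (1.40), Ankrd2 (1.39), Mt1 (1.37), Ipo13 (1.36), Nabp1 (1.29), Ivns1abp (1.22), Psmd4 (1.12), Gnl3 (1.11), Hba-a1 (1.11), Hbb-b1 (1.09) and Ctsl (1.00). Smaller values of this sign were those of Map1lc3b (0.89), Psmd2 (0.85), Wdr43 (0.71), Cd36 (0.64) and Ubb (0.51).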

How the results depend on the processing

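Of 121 named genes called on the average, 91 kept the call in each of the 12 fits without 1 array. The other 30 lost it in at least 1. The sign changed for 0 of the 121 under the alternatives run. With 4 group means, the replicate block, no trend, a mean log2 over 5, 1 row per gene or all rows the average is the same by design. Only quantile or median scaling and the fits without 1 array could change the sign. The call was lost by 0 with 4 group means, 17 with the replicate block within each muscle, 3 without the variance trend, 0 with a mean log2 over 5, 2 with quantile normalization, 9 with arrays shifted to 1 median, 1 with 1 row per gene and 25 with all rows tested. The counts of 800 rises and 611 falls became 1374 and 1017 with 4 group means, where the difference between muscles leaves the spread, 680 and 580 with the replicate block, and 385 falls with all rows tested. Quantile normalization moved the split to 866 and 907. Without 1 array they ranged from 461 to 1063 rises and 368 to 893 falls. For the difference between muscles, 414 and 383 rows with a positive and a negative value became 734 and 731 with the replicate block. The positive count was 252 with arrays shifted to 1 median, and the negative count was 627 with quantile normalization and 254 with all rows tested. Without 1 array they ranged from 212 to 1089 and 207 to 594. In gastrocnemius 466 rose and 385 fell when it was fitted alone, and 905 to 2605 and 753 to 1438 without 1 array. In heart 1258 and 1301 were called when it was fitted alone, 644 and 435 with the replicate block, 135 falls with all rows tested, and 224 to 691 and 90 to 534 without 1 array. Rows without overlap in both muscles ranged from 784 to 1142 above and 789 to 1072 below without 1 array. The cause of these shifts was not tested, except that more rows are tested in the fit of all rows and fewer arrays enter a fit without 1. Within the lists, 4 group means called 17 proteasome, 19 ribosome biogenesis, 16 unfolded protein response, 17 glucocorticoid and FoxO, 13 fatty acid, 11 insulin and 10 macrophage genes higher and 33 oxidative phosphorylation genes lower. The replicate block called 1 proteasome and 4 ribosome biogenesis genes higher, and Psmd2, Psmd4 and Psma7 lost the call (adjusted p = 0.0502, 0.0526 and 0.0649). Every gastrocnemius array correlated best with its own number, a hint from the data that the heart arrays did not give. Of 630 list medians 6 moved by over 1 SD of the arrays. Acute phase, red cell and interleukin-6 medians were 0.82, 0.45 and 0.38 with a mean log2 over 5. Interleukin-6, glycolysis and insulin medians were 0.20, -0.15 and 0.21 without C26 gastrocnemius 2, 3 and 1. Many of the 630 could not move, since a median is the same by design with 4 group means, the replicate block, no trend, 1 row per gene or all rows. With 3 arrays per group and muscle confounded with cohort, small common changes may be missed and signal over background per array is not given in the values used here.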
